A study of Rattus norvegicus with 28 samples.

Results

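Complement C3 (ENSRNOG00000046834) and the 3 chains of complement C1q (ENSRNOG00000012807, ENSRNOG00000012804 and ENSRNOG00000012749) were followed in rat spinal cord and brain, 4 of the 30560 genes in the count tables. The 4 rows were picked by their Ensembl identifiers, C3 because it was higher in mutant-read libraries of both tissues and the C1q chains by their identity, taken as one group. The values that chose C3 are therefore given below as a description, with no test. All 4 genes were chosen with earlier results of these data known, a limit on the p-values of the C1q chains as well. The tables carry identifiers only. The name C3 and the group name C1q come with the choice of rows, and which identifier is the A, B or C chain is not settled by the sources used here.

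The mutant animals were rats labelled mtCO3mut, which the series text describes as deficient in mitochondrial respiratory complex IV in neurons and names COXⅢNeuN-Cre, that is, after the third cytochrome c oxidase subunit and a Cre under the name of a neuronal marker; the control animals were labelled WT. Spinal cord and brain each had 4 mtCO3mut and 4 WT libraries of total RNA. The columns of the tables name no genotype but carry a plus or a minus mark. The plus mark was taken to mean mtCO3mut and the minus mark WT, a reading the labels do not state, so libraries are called plus-marked and minus-marked and numbered 1 to 4 within a mark. If the marks were the other way round, every direction would reverse against the genotype. The deposited spinal cord counts are named lumbar. The sources used here give no age, strain or form of the mutation, and do not say whether each library is a separate animal; p-values then reflect only library-to-library spread, which may be partly technical. The 12 early-stage spinal cord samples could not be tied to columns and were not analysed here.

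C3 is the protein on which all complement pathways converge; its cleavage leaves one fragment on the target surface and releases another that attracts and activates cells carrying its receptor. C1q is the recognition molecule that starts the classical pathway; it is built from A, B and C chains encoded by neighbouring genes, and every C1q molecule needs all of them. In the central nervous system C1q comes mainly from microglia, the resident macrophages, whereas C3 is known from reactive astrocytes and from microglia and is low in the healthy tissue. C1q and C3 together are known to mark synapses for removal. These libraries are bulk tissue, so more cells of a type and more RNA per cell cannot be told apart.

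The reference gene table lists C1qa, C1qb and C1qc as neighbours on chromosome 5, with 0 other genes between them, and C3 on chromosome 9. The promoter windows are shown because the C1q chains lie together in the genome and all were higher in plus-marked spinal cord, while C3 lies elsewhere. Each window runs from 250 bases before to 50 bases after the annotated start, 5′ to 3′ on the strand of the gene, as given by RefSeq on build GRCr8, which is not the build the authors counted on. A window was found for 3 of the 4 genes. C3 lies at chr9:2201290-2201589, C1qa at chr5:154419884-154420183 and C1qb at chr5:154407778-154408077, all on the minus strand. Capitals mark matches, on either strand, to the C/EBP motif TTGCNNAA, the STAT motif TTCNNNGAA, the ETS motif GGAAGT (the family of the macrophage factor PU.1) and the interferon-stimulated response element (GAAA, any 2 bases, GAAA). No matches to different motifs overlap in these windows.
C3: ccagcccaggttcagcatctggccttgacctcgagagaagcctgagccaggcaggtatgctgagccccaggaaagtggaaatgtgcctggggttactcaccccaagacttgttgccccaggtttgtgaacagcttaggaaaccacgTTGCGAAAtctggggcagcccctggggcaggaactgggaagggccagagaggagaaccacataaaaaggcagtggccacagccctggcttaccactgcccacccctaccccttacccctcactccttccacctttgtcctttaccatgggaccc
C1qa: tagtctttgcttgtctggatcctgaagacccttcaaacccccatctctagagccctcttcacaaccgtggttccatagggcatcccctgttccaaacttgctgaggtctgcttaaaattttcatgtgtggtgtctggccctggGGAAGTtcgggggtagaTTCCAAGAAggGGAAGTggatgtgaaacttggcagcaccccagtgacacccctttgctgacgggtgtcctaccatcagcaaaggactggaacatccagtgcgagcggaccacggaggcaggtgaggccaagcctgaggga
C1qb: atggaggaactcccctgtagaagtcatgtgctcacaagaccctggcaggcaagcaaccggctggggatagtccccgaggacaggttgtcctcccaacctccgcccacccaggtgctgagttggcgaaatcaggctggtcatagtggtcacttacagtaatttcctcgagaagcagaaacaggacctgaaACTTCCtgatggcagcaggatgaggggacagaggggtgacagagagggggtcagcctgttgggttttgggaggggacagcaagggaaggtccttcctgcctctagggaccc

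The C3 window held 1 match to the C/EBP motif, beginning at position -104 (the base before the start is -1), and none to the other motifs. C/EBP factors are known for driving acute-phase genes. The C1qa window held 2 matches to the ETS motif and 1 to the STAT motif, which reads the same on both strands, and the C1qb window held 1 match to the ETS motif. Of the 33469 promoter windows of this length in the reference, 10.6% held the C/EBP motif, 8.87% the STAT motif, 22.6% the ETS motif and 3.92% the interferon-stimulated response element, so such matches are common. A match describes letters only and was not tested for binding.

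In spinal cord, C3 had 121, 85.5, 96.02 and 119.7 CPM in the plus-marked libraries, against 21.7, 23.9, 20.9 and 11.2 CPM in the minus-marked ones. CPM, the usual unit of counts scaled to library size, was computed here after TMM scaling within the tissue. The lowest plus-marked library was 3.59 times the highest minus-marked one, and minus-marked library 4 lay well under its group. The means were 105.6 ± 17.6 and 19.4 ± 5.6 CPM (SD, n = 4 each), and the fitted log2 difference was 2.44 (SE 0.21), a 5.43-fold higher level. By size of log2 difference C3 held place 29 of 17134 genes in this tissue, where 13.5% of genes were called at an edgeR adjusted p under 0.05; since C3 was chosen for this difference, its place is a description.

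In brain, C3 had 34.7, 39.4, 36.2 and 32.8 CPM in the plus-marked libraries, against 10.1, 5.57, 6.92 and 5.55 CPM in the minus-marked ones. Every plus-marked library lay above every minus-marked one, by at least 3.24 times, where 2.67% of brain genes had all 4 plus-marked libraries on top. The plus-marked libraries lay close together. The means were 35.8 ± 2.82 and 7.04 ± 2.15 CPM (SD, n = 4 each), a log2 difference of 2.35 (SE 0.16) or 5.10-fold. C3 held place 3 of 16860 genes by size of log2 difference in brain, where 0.243% of genes were called, again as a description.

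The C3 log2 difference in spinal cord less that in brain was 0.08 (SE 0.29), a description as well. The column names also carry codes such as L24, whose meaning the labels do not state. Within these codes, the C3 log2 difference in spinal cord was 2.42 in L24 and 2.16 in the other codes together. In brain it was 2.24 in L3 and 2.38 in L1. Spinal cord L24 held a single minus-marked library, and the other spinal cord codes and brain L1 each held a single plus-marked one. The sizes in those subsets therefore have no replicate check. Leaving out each library in turn moved the C3 log2 difference between 2.25 and 2.55 in spinal cord and between 2.25 and 2.57 in brain.

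**Figure D1:**
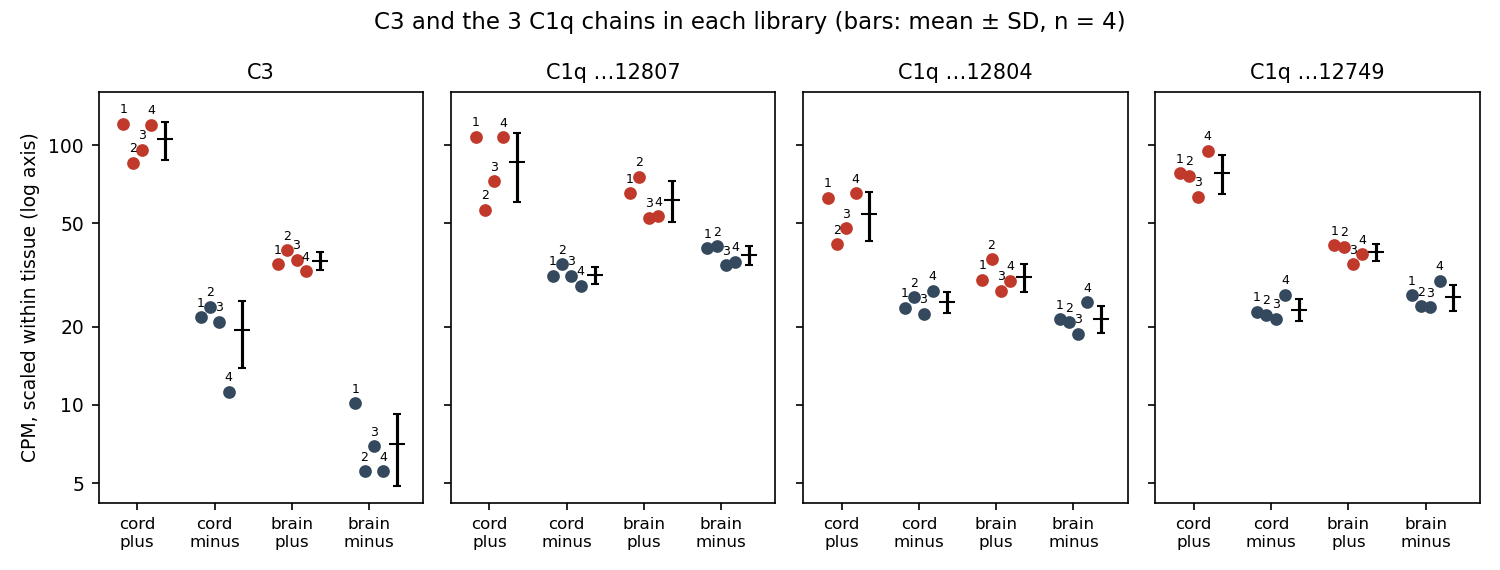
CPM of C3 and of each C1q chain (named by the last 5 digits of its identifier) in each library, on a log axis, plus-marked libraries in red and minus-marked ones in blue, numbered 1 to 4, with the mean ± SD beside each group. For all 4 genes and both tissues the plus-marked points lie above the minus-marked ones, most widely for C3, whose spinal cord means are 105.6 and 19.4 CPM. C3 was chosen for its difference between the marks. All 4 plus-marked libraries lay on top for 9.13% of spinal cord genes and 2.67% of brain genes.

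The C1q chains were higher in plus-marked spinal cord as well, by less than C3. ENSRNOG00000012807 had 107, 56.3, 72.5 and 107 CPM in plus-marked spinal cord, against 31.4, 34.8, 31.4 and 28.8 CPM in minus-marked. ENSRNOG00000012804 had 62.8, 41.5, 47.95 and 65.2 CPM in plus-marked spinal cord, against 23.7, 25.9, 22.4 and 27.5 CPM in minus-marked. ENSRNOG00000012749 had 77.99, 76.3, 63.2 and 94.99 CPM in plus-marked spinal cord, against 22.8, 22.3, 21.5 and 26.5 CPM in minus-marked. The marks did not overlap for any of the chains, in a tissue where 9.13% of genes had all 4 plus-marked libraries on top. Plus-marked library 2, the shallowest at 21008418 counts, was lowest of its group for ENSRNOG00000012807 and ENSRNOG00000012804, and library 3 was lowest for ENSRNOG00000012749.

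All 3 chains rose in plus-marked spinal cord by edgeR's quasi-likelihood test, adjusted over all 17134 genes, where 6.83% of genes were called higher. The log2 difference was 1.75 for ENSRNOG00000012749 (SE 0.13, edgeR adjusted p = 4.04e-05), 1.44 for ENSRNOG00000012807 (SE 0.18, edgeR adjusted p = 0.000716) and 1.13 for ENSRNOG00000012804 (SE 0.15, edgeR adjusted p = 0.000693). These are 3.36-fold, 2.72-fold and 2.19-fold higher levels. The median log2 difference was 1.44 over the 3 chains, 0.00 over all genes tested and 0.78 over the 1171 genes called higher. Within code L24, which holds 3 plus-marked and 1 minus-marked library, the log2 differences were 1.87 for ENSRNOG00000012749, 1.60 for ENSRNOG00000012807 and 1.38 for ENSRNOG00000012804. In the other codes together, with 1 plus-marked library (library 2) and 3 minus-marked ones, they were 1.66 for ENSRNOG00000012749, 0.82 for ENSRNOG00000012807 and 0.68 for ENSRNOG00000012804, so for the last 2 chains this value rests on the plus-marked library with the lowest level. Each of these subsets has a single library in one of the marks, so the sizes have no replicate check there; ENSRNOG00000012804 in the other codes lay at the threshold (edgeR adjusted p = 0.0493, with the lone library assumed to vary like the rest). With any 1 of the 8 libraries left out, all 3 chains passed. Plus-marked spinal cord libraries had 21008418 to 40359757 counts and minus-marked ones 39952615 to 47597097, and the part of depth was not tested.

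In brain the C1q differences were smaller. ENSRNOG00000012807 had 65.2, 75.4, 52.4 and 53.3 CPM in plus-marked brain, against 40.2, 40.8, 34.4 and 35.6 CPM in minus-marked. ENSRNOG00000012804 had 30.3, 36.3, 27.5 and 30.04 CPM in plus-marked brain, against 21.4, 20.8, 18.8 and 24.9 CPM in minus-marked. ENSRNOG00000012749 had 41.1, 40.6, 34.8 and 38.0 CPM in plus-marked brain, against 26.5, 23.9, 23.7 and 30.1 CPM in minus-marked. The marks again did not overlap for any of the chains, where 2.67% of brain genes had all 4 plus-marked libraries on top, but the gaps were narrow: the lowest plus-marked library was 1.28 times the highest minus-marked one for ENSRNOG00000012807, 1.16 times for ENSRNOG00000012749 and 1.11 times for ENSRNOG00000012804.

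Of the 3 chains, 2 rose in plus-marked brain, where 0.190% of 16860 genes were called higher. The log2 difference was 0.71 for ENSRNOG00000012807 (SE 0.12, edgeR adjusted p = 0.0233) and 0.57 for ENSRNOG00000012749 (SE 0.10, edgeR adjusted p = 0.0291). For ENSRNOG00000012804 it was 0.53 (SE 0.11, edgeR adjusted p = 0.0675), past the threshold with DESeq2 (adjusted p = 0.00181) and with no filter on low counts (edgeR adjusted p = 0.0301). The sizes stayed positive when a library was left out, at 0.59 to 0.78 for ENSRNOG00000012807, 0.53 to 0.64 for ENSRNOG00000012749 and 0.45 to 0.61 for ENSRNOG00000012804. The calls did not all hold. ENSRNOG00000012807 lost its call without plus-marked library 1 or 2 (edgeR adjusted p = 0.0595 and 0.0707) or minus-marked library 1, 3 or 4 (0.0602, 0.0728 and 0.0857). ENSRNOG00000012749 lost its call without plus-marked library 1, 2 or 3 (edgeR adjusted p = 0.0843, 0.106 and 0.0527) or minus-marked library 1, 2 or 3 (0.0913, 0.0671 and 0.0862). Within code L3 the log2 differences of ENSRNOG00000012807, ENSRNOG00000012804 and ENSRNOG00000012749 were 0.67, 0.57 and 0.63, none past the threshold. Within L1, which holds a single plus-marked library and so gives no replicate check, they were 0.60, 0.46 and 0.50. All plus-marked brain libraries were deeper than all minus-marked ones, at 64782608 to 82776333 against 33105800 to 62851529 counts, and the part of depth in these differences was not tested.

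The effect of mark on ENSRNOG00000012749 differed between the tissues. Its log2 difference between the marks was larger in spinal cord than in brain by 1.17 (SE 0.16, edgeR adjusted p = 0.000895 for the interaction term over 17823 genes, of which 2.79% were called, 1.03% with a larger value in spinal cord). It passed in all 25 alternative fits, with an adjusted p of at most 0.0281. For ENSRNOG00000012807 the tissues differed by 0.73 (SE 0.23, edgeR adjusted p = 0.0926) and for ENSRNOG00000012804 by 0.59 (SE 0.19, edgeR adjusted p = 0.094), with 95% intervals of 0.27 to 1.18 and 0.22 to 0.95. Of 25 alternative fits, ENSRNOG00000012807 passed in 4 and ENSRNOG00000012804 in 3. Among the 16 fits with 1 library left out, each passed in 1 only. That fit left out spinal cord plus-marked library 2, the lowest of its group for both chains, and gave 0.88 (edgeR adjusted p = 0.0224) and 0.69 (edgeR adjusted p = 0.0377). Spinal cord and brain come from separate tables, and their column names carry partly different codes, so tissue and table cannot be told apart. Plus-marked libraries were mostly shallower than minus-marked ones in spinal cord and deeper in brain, and the part of depth was not tested.

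**Figure D2:**
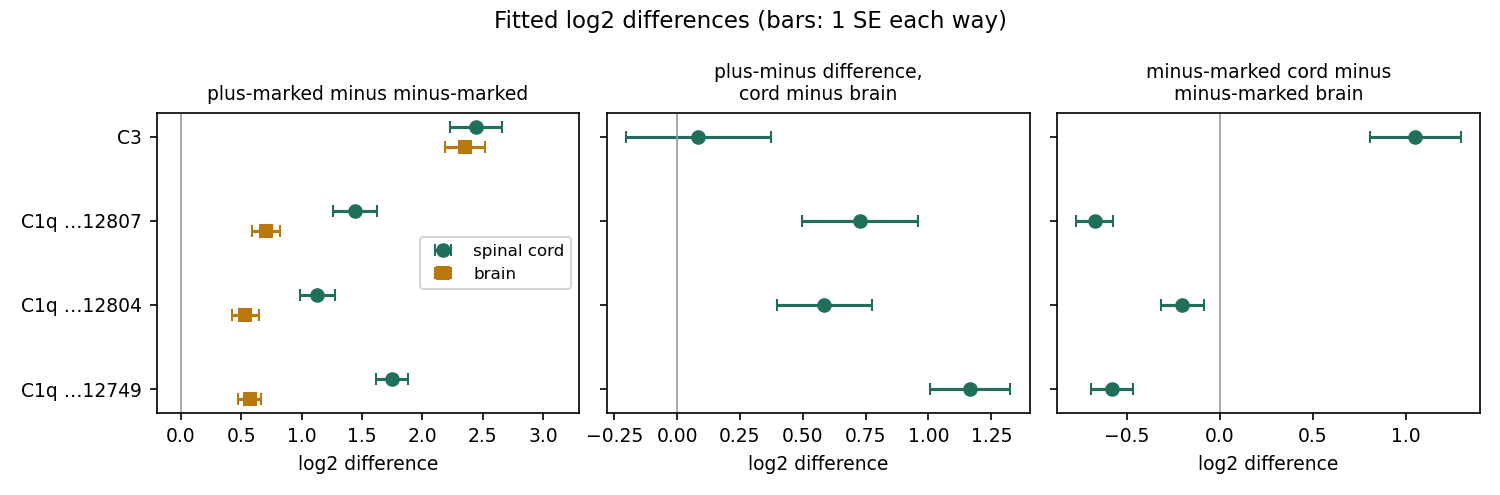
Fitted log2 differences with bars of 1 SE each way for C3, as a description, and for the C1q chains. The left panel sets plus-marked against minus-marked libraries in spinal cord (circles) and brain (squares), the middle panel shows the spinal cord difference minus the brain difference, and the right panel sets minus-marked spinal cord against minus-marked brain. C3 sits near the same value in both tissues (2.44 and 2.35), while each C1q chain sits further right in spinal cord.

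Within minus-marked tissue, spinal cord and brain stood in a different order for C3 and for C1q. With CPM scaled over both tissues together, C3 had 18.9, 20.7, 17.9 and 9.80 CPM in minus-marked spinal cord, against 11.7, 6.44, 8.05 and 6.42 CPM in minus-marked brain. The tissues overlapped through spinal cord library 4 and brain library 1. The log2 difference of C3, minus-marked spinal cord over minus-marked brain, was 1.05 (SE 0.24), given with no test because these libraries were the reference when C3 was chosen. The C1q differences were negative: ENSRNOG00000012807 was lower in minus-marked spinal cord by a log2 difference of -0.67 (SE 0.10, edgeR adjusted p = 2.56e-05) and ENSRNOG00000012749 by -0.58 (SE 0.11, edgeR adjusted p = 0.000363). ENSRNOG00000012804 differed by -0.20 (SE 0.11, 95% interval from -0.42 to 0.02, edgeR adjusted p = 0.127). Between these tissues 72.0% of 16966 genes were called, 37.0% higher and 35.0% lower in spinal cord, so passing the threshold here is the usual case for a gene.

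On this common scale C3 was highest in plus-marked spinal cord (90.9 ± 14.9 CPM), followed by plus-marked brain (41.4 ± 3.29), minus-marked spinal cord (16.8 ± 4.82) and minus-marked brain (8.16 ± 2.5; SD, n = 4 in each group). Only the last pair of neighbours in this order overlapped. The order holds the difference between the marks that chose C3, so it is a description. The summed C1q chains were ordered plus-marked spinal cord (188 ± 38.6 CPM), plus-marked brain (152 ± 19.4), minus-marked brain (98.7 ± 6.64) and minus-marked spinal cord (69.1 ± 3.68; SD, n = 4 in each group). The 2 plus-marked groups overlapped, and the minus-marked groups did not. Each chain had the same order of groups as the sum. The plus-marked groups did not overlap for ENSRNOG00000012749, and the minus-marked groups overlapped for ENSRNOG00000012804. How often the groups separate across the tissues for other genes was not examined. Levels of different genes are not compared, since the tables give no lengths.

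The chains did not keep the same proportions in all groups. The count ratio of ENSRNOG00000012749 to ENSRNOG00000012804 was 1.24, 1.84, 1.32 and 1.46 in plus-marked spinal cord, against 0.964, 0.859, 0.958 and 0.966 in minus-marked. These did not overlap, with means of 1.46 ± 0.265 and 0.937 ± 0.0519 (SD, n = 4 each). Library 2 gave the highest ratio, and without it the plus-marked mean was 1.34 ± 0.109 (SD, n = 3). In brain the same ratio was 1.36, 1.12, 1.27 and 1.27 in plus-marked libraries, against 1.24, 1.15, 1.26 and 1.21 in minus-marked, which overlapped. Length cancels when 1 ratio is compared between libraries, so the shift in spinal cord is one of relative counts between these chains. The other chain ratios overlapped between the marks in spinal cord. For ENSRNOG00000012807 to ENSRNOG00000012804 the means were 1.56 plus-marked and 1.28 minus-marked, with no overlap once plus-marked library 2 was left out. For ENSRNOG00000012749 to ENSRNOG00000012807 they were 0.96 and 0.74. How often ratios of other gene pairs separate the marks was not examined.

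As a share of the C1q counts, ENSRNOG00000012804 made up 23.8% to 26.1% in plus-marked spinal cord and 29.8% to 33.2% in minus-marked, with no overlap. How often such shares separate the marks in other gene groups was not examined. ENSRNOG00000012749 made up 31.4%, 43.8%, 34.4% and 35.5% in plus-marked spinal cord, against 29.3%, 26.8%, 28.5% and 32.0% in minus-marked, overlapping through plus-marked library 1 and minus-marked library 4. ENSRNOG00000012807 overlapped widely, at 32.4% to 43.3% and 34.8% to 41.9%. Plus-marked spinal cord library 2 was the only library of the 16 with more counts on ENSRNOG00000012749 than on ENSRNOG00000012807. In brain all 3 shares overlapped between the marks.

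**Figure D3:**
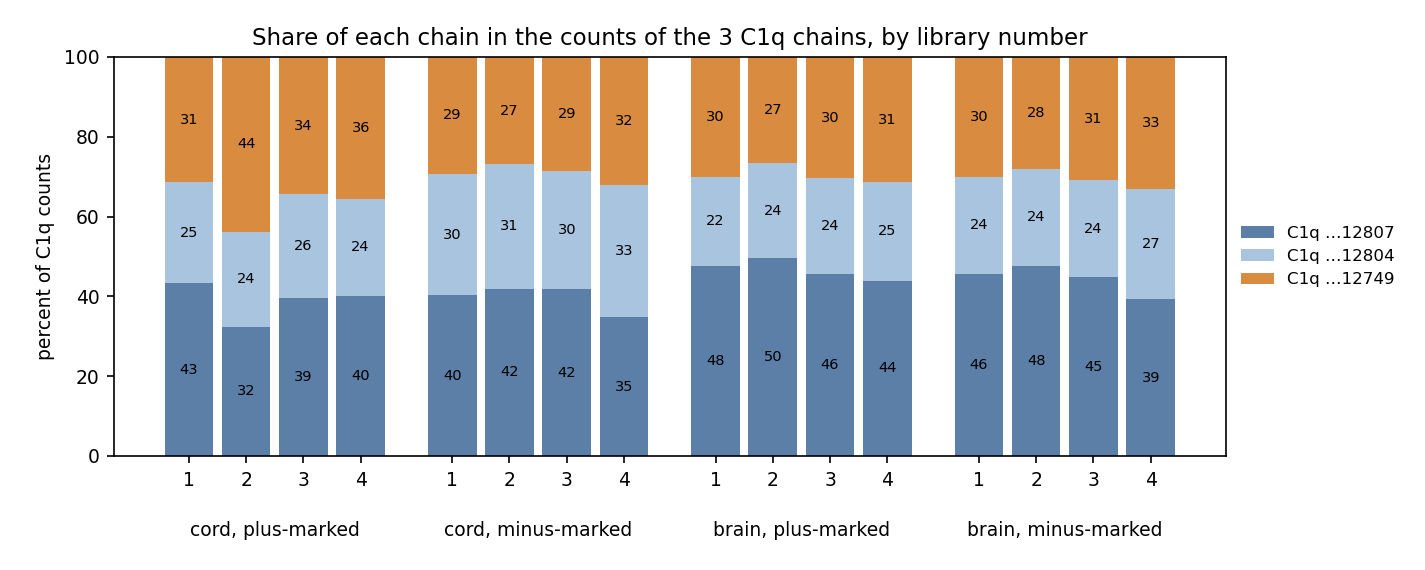
Share of each chain in the summed counts of the C1q chains, 1 bar per library, in percent. The ENSRNOG00000012804 share is smaller in every plus-marked than in every minus-marked spinal cord library, and ENSRNOG00000012749 reaches 43.8% in plus-marked spinal cord library 2.

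Per C1q count, C3 was also higher in plus-marked libraries. There were 0.487, 0.491, 0.523 and 0.448 C3 counts per C1q count in plus-marked spinal cord, against 0.278, 0.288, 0.277 and 0.136 in minus-marked. In brain there were 0.254, 0.259, 0.316 and 0.270 in plus-marked libraries, against 0.115, 0.0651, 0.0900 and 0.0613 in minus-marked. The marks did not overlap in either tissue, and the ratio of the means was 1.99 in spinal cord and 3.31 in brain. The difference in C3 chose this gene, so the ratio is a description, and how often other ratios separate the marks was not examined.

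**Figure D4:**
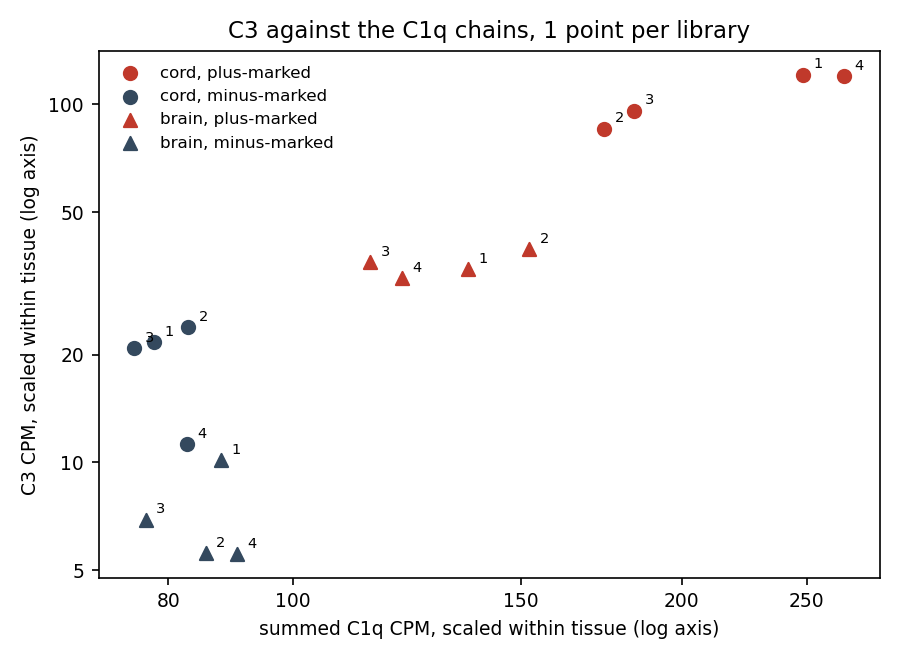
C3 CPM against summed C1q CPM for each library, both on log axes scaled within tissue, with circles for spinal cord, triangles for brain, red for plus-marked and blue for minus-marked libraries, numbered 1 to 4. Plus-marked libraries lie up and to the right of minus-marked ones in each tissue, and minus-marked spinal cord library 4 lies below its group at 11.2 CPM of C3. C3 was chosen for its difference between the marks, so its separation is a description.

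Within groups the correlation of C3 with each C1q chain is given as a description, with no interval or test, so differences between chains are not established. After subtracting each group's mean of log2 CPM, Pearson's r with C3 over 16 libraries was 0.51 for ENSRNOG00000012807, 0.10 for ENSRNOG00000012804 and -0.13 for ENSRNOG00000012749. Among the chains r was 0.78 for ENSRNOG00000012807 with ENSRNOG00000012804, 0.71 for ENSRNOG00000012804 with ENSRNOG00000012749 and 0.37 for ENSRNOG00000012807 with ENSRNOG00000012749. These values describe 16 libraries that share depth and composition within a library.

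The genes most like C3 and C1q were sought over the same 16 libraries by r of log2 CPM after subtracting each table's mean, among 7723 other genes with a mean log2 CPM of at least 4 in both tables; this r also holds the difference between the marks. Closest to C3 was ENSRNOG00000018735 (r = 0.94), with 81.5 ± 34.3 CPM in plus-marked and 30.7 ± 7.36 CPM in minus-marked spinal cord and 46.4 ± 5.81 against 17.5 ± 4.3 CPM in brain (SD, n = 4 each). By this r, which holds the difference that chose C3, 5 of those genes were closer to C3 than ENSRNOG00000012807 was (r = 0.90). After subtracting group means instead, ENSRNOG00000012807 held place 487 (r = 0.51) against the 7723 genes, ENSRNOG00000012804 place 3073 and ENSRNOG00000012749 place 4727. Closest to the mean of the C1q chains was ENSRNOG00000012698 (r = 0.96), with 64.8 ± 3.45 CPM in plus-marked and 40.3 ± 0.633 CPM in minus-marked spinal cord and 18.1 ± 1.6 against 16.3 ± 0.923 CPM in brain (SD, n = 4 each). The sources used here name neither gene. With deviations from group means in place of table means, 0 of the 5 closest genes were shared for C3 and 0 of 5 for C1q.

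Totals over all 16 libraries ran from 21008418 to 82776333 counts. Counts of the 4 genes ranged from 222 to 6107, for which counting error alone is 6.71% to 1.28%. Even counts were in excess: 62.7% to 68.3% of gene counts of at least 10 were even in each library, and so were 54 of the 64 counts of these genes, so counts may not be independent single reads and this error is a lower limit. Other genes of the complement pathway, cell type markers and the gene that the label mtCO3mut refers to were not analysed here, as their identifiers carry no names. The part of cell composition in these differences was not tested.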

How the data were processed

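Total RNA of rat spinal cord and brain was depleted of ribosomal RNA and sequenced as strand-marked (dUTP) paired-end libraries, per the labels' protocols. The deposited tables hold raw counts per Ensembl gene made by the authors, with no normalization; per the submitters' processing notes, cutadapt, featureCounts, DESeq2 and the build mRatBN7.2 were used. No source used here gives the aligner, the tool versions or whether counting used strand. Of the early-stage table, 12 columns match no label and were not used. The reference gene table paired 0 of its 47357 genes with Ensembl identifiers, so the planned lists of complement genes and markers could not be applied.

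Each tissue was fitted with edgeR 4.0.16 (R 4.3.3, limma 3.58.1): filterByExpr, TMM scaling, robust quasi-likelihood F test, two-sided, Benjamini-Hochberg over all genes tested, threshold 0.05. Joint fits gave the minus-marked tissue comparison and the interaction. Standard errors were derived from the F statistic. The 95% intervals used a normal quantile with these errors, so they are somewhat narrower than the F test would give. Log2 CPM used a prior count of 2. DESeq2 1.42.0 was an alternative. The scripts were tested on simulated data. Named were the 4 genes and, of the 5 most like C3 and C1q, the closest. The members and lists were chosen with earlier results of these data known.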

Additional observations from a re-analysis of the deposited data

Results flagged for a closer look

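Each measure was examined in each group of 4 libraries, 44 times in all, and 3 times a single library lay far from its group. Chance gives about 1 in 20, which is close to the 3 of 44 found, and the measures overlap, since the chain shares and ratios use the same counts; no pattern is read from these libraries. In spinal cord, minus-marked library 4 had 0.136 C3 counts per C1q count, and the rest of its group had 0.277 to 0.288. In brain, minus-marked library 4 had 27.5% of its C1q counts on ENSRNOG00000012804, against 24.3% to 24.4% in the others. The same brain library had 36.1% of all its counts in the 10 most abundant genes, against 17.8% to 18.8% in the others.

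The effect of mark on ENSRNOG00000012749 differed between spinal cord and brain by a log2 difference of 1.17 (edgeR adjusted p = 0.000895), where 2.79% of genes were called. Its plus-marked libraries all lay above its minus-marked ones in both tissues, as for 9.13% of spinal cord genes and 2.67% of brain genes. That separation within each tissue does not bear on the difference between the tissues.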

How the results depend on the processing

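Every log2 difference of the C1q chains kept its direction under all alternatives. Those of C3 between the marks and between the minus-marked tissues did too. C3 was chosen for being higher in these plus-marked libraries, so its kept direction is a description and no check. The C3 difference in spinal cord minus brain, near 0, ran from -0.14 to 0.35. In brain, the C1q calls were lost or gained as follows. ENSRNOG00000012807 and ENSRNOG00000012749 missed the threshold within code L3 (0.67 and 0.63). Within L1, with a single plus-marked library, their sizes were 0.60 and 0.50. Of the 8 fits with 1 library left out, ENSRNOG00000012807 passed in 3 (0.59 to 0.78 over all 8) and ENSRNOG00000012749 in 2 (0.53 to 0.64 over all 8). ENSRNOG00000012804 passed with DESeq2 (0.53) and with no filter on low counts (0.54). For spinal cord minus brain, ENSRNOG00000012807 passed with DESeq2 (0.76), without plus-marked number 2 in both tissues (0.99) and also without brain minus-marked library 4 (1.04), and ranged over 0.59 to 0.88 with 1 library left out. ENSRNOG00000012804 passed with DESeq2 (0.62) and without plus-marked number 2 (0.78), and ranged over 0.50 to 0.69. The subsets by code, L24 as a term and the fits without number 2 were chosen after seeing the data; where a subset leaves 1 library in a mark, that library is assumed to vary like the others.

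Genes called in spinal cord numbered 2312, 267 within code L24, 1089 in the other codes and 1175 to 2114 with 1 library left out. In brain they numbered 41, 203 with DESeq2, 74 with no filter, 71 within L1 and 8 to 60 with 1 library left out. For the interaction they numbered 498, 1131 with DESeq2, 115 with the code as a term, 187 without number 2, 117 also without brain minus-marked library 4, and 215 to 647 with 1 library left out. The cause was not tested.

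The numbers in the column names are shared between tissues, not between marks, so no paired fit of the marks within a tissue could be made. Deviations of same-numbered libraries correlated over 0.1 across genes in 6 of 8 pairs, and 7 of 8 spinal cord libraries correlated best with their own number, a hint from the data and not the design. With the replicate block, 12517 genes were called between minus-marked tissues (12214 without) and 694 for the interaction (498 without), and no call on a C1q chain changed. Early-stage fits were not run, and neither was the code as a full term in spinal cord, where 1 code holds both marks.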
